A study of Mus musculus with 2 samples.

Results

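Steroid-producing cells of the adrenal cortex need a steady flow of cholesterol to the mitochondrion, and 8 genes of that route were followed here: Star, Tspo, Scarb1, Soat1, Lipe, Npc2, Npc1 and Stard3. They were taken by gene name from the transcript tables of both libraries, with reads summed over all transcript models, and are 8 of the 18053 known genes with a read in either library. The data came from adrenal glands of male B6CASTF1/J mice aged 4 days, whose total RNA was made into 2 long-read libraries, biological replicates 1 and 2. There was 1 group and no treatment or genotype contrast, so the genes were described by level, by isoform and by the difference between the libraries. Whether they are 2 animals is unclear: by the tissue labels replicate 1 is male 03 and replicate 2 is male 04, but both library labels give male 03 and a single donor identifier stands on both. Each p-value below sets the reads of 1 library against those of the other, with reads taken as independent, and so weighs a difference against counting error alone, with no spread between libraries in it.

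Cholesterol enters adrenal cells mainly from lipoproteins through the receptor that Scarb1 encodes, and also through endocytosis, after which the Npc1 and Npc2 proteins move it out of the lysosome. Surplus is esterified by the Soat1 enzyme and stored in droplets, from which the lipase encoded by Lipe frees it. The Star protein then brings it to the inner mitochondrial membrane, where steroid synthesis starts; this step is under acute hormonal control and limits the rate of synthesis in steroid-producing cells.

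Replicate 1 held 688436 reads assigned to mouse genes and replicate 2 held 810818, so 1 read equalled 1.45 and 1.23 CPM, the count scaled to a library of 1000000 reads. Cortical marker genes were detected in full (8 of 8; 45348 CPM in replicate 1 and 30583 CPM in replicate 2), as were those of chromaffin cells (7 of 7; 12547 and 9339 CPM). The libraries differed in the liver genes, where all 9 were lower in replicate 1, with a summed 455 CPM against 17522 CPM in replicate 2. Summed levels of fat genes (8 of 8) were 1894 CPM in replicate 1 and 2449 CPM in replicate 2, those of macrophage genes (8 of 8) 363 and 353 CPM, of muscle genes (5 of 5) 1364 and 2378 CPM and of endothelial genes (5 of 5) 703 and 659 CPM.

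Star was by far the most abundant of the 8 genes and Npc1 the least. The 8 genes summed to 2045 reads in replicate 1 and 1945 in replicate 2, or 2685 ± 404 CPM (SD, n = 2), and Star held 55.6% of those reads in replicate 1 and 55.1% in replicate 2. The order of levels was Star, Scarb1, Tspo, Npc2, Soat1, Stard3, Lipe and Npc1 in each library. A long read stands for 1 cDNA, so these levels are shares of all reads, in CPM, and were not divided by transcript length. Long cDNAs may be less well captured, which was not tested. Of the neighbours in this order, Npc2 and Soat1 did not differ beyond their spread (26.0 CPM apart, against an SD of 40.9 CPM for Soat1). The values of the other neighbours did not overlap between libraries. The closeness of Npc2 and Soat1 depends on the models counted. With known transcript models alone Npc2 stood at 249 ± 3.00 CPM and Soat1 at 181 ± 37.3 CPM (SD, n = 2). In tissue, fewer cortical cells and less RNA per cell cannot be told apart.

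**Figure D1:**
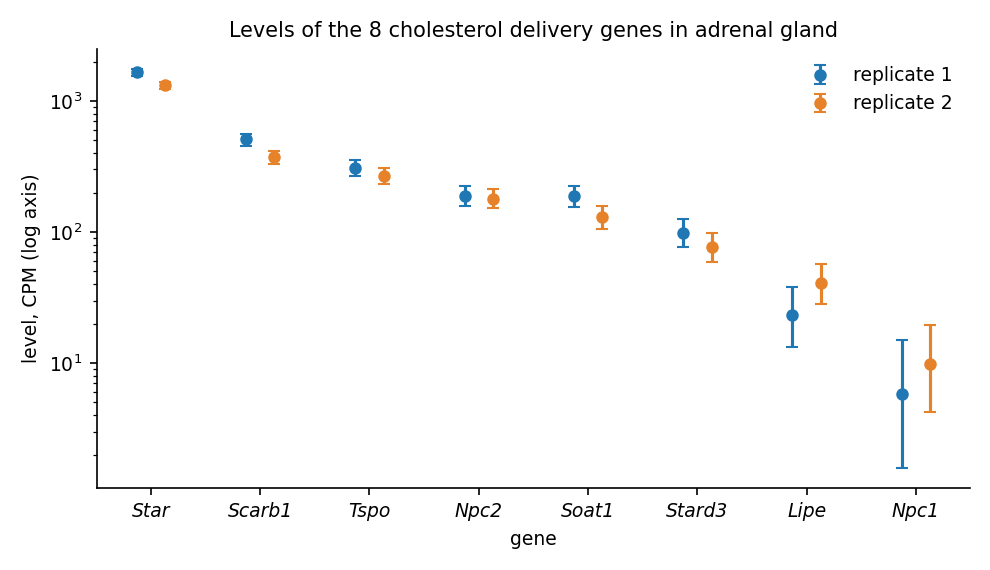
Level of each gene in CPM on a log axis, with 1 point per library (replicate 1 left, replicate 2 right) and 95% exact Poisson intervals of the reads, which cover counting error only. Star lies at 1650 CPM in replicate 1 and 1322 CPM in replicate 2, and Npc1 at 5.81 and 9.87 CPM.

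Star (chromosome 8, 25806555 to 25815982, plus strand, mm10), whose product is the steroidogenic acute regulatory protein, had 1136 reads in replicate 1 and 1072 in replicate 2. These equalled 1650 and 1322 CPM, or 1486 ± 232 CPM (SD, n = 2). Both libraries placed it among their most abundant known genes, at rank 34 of 15535 in replicate 1 and rank 54 of 16618 in replicate 2. The level was 1.25 times as high in replicate 1 (95% counting interval 1.15 to 1.36). It passed the test on its adjusted p but stayed under the size threshold (log2 ratio 0.32 with a counting SE of 0.061, Fisher's exact test, adjusted p 9.09e-06).

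Nearly all complete Star reads had 1 exon chain. Among reads with a complete or newly spliced chain, the 7-exon Star-201 model held 829 of 849 (97.6%) in replicate 1 and 699 of 726 (96.3%) in replicate 2. Reads that follow only part of the chain are left out of this share. Among them is a 6-exon model that ends in intron 6, with 28 reads in replicate 1 and 47 in replicate 2. The second annotated Star model, Star-202, was not listed in either library. Reads of all classes crossed introns 1, 2 and 3 of Star-201 883, 902 and 900 times in replicate 1 and 783, 810 and 805 times in replicate 2. Introns 4 and 5 were crossed 1022 and 1024 times in replicate 1 and 927 and 923 times in replicate 2, more often than the first 3 introns in both libraries. The step came mostly from 1 model of 4 exons that starts at exon 4 and held 105 reads in each library. Whether these are shortened cDNAs or transcripts begun within the gene was not tested.

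The last intron of Star was the place where reads most often left the annotated chain. Of reads spliced from exon 5 into exon 6, 980 of 1024 (95.7%) went on to exon 7 in replicate 1 and 855 of 923 (92.6%) in replicate 2. Another 38 reads (3.71%, 95% Wilson interval 2.72 to 5.05) in replicate 1 and 56 reads (6.07%, 4.70 to 7.80) in replicate 2 ran on from exon 6 into intron 6. Their models ended at 25812423 in both libraries, 540 bases past exon 6. The intervals of this share that ran into intron 6 overlapped between the libraries. Those of the share that went on to exon 7 did not (94.3 to 96.8 in replicate 1 and 90.8 to 94.1 in replicate 2). Counting every read whose model ends at 25812423, with unspliced reads included, gave 57 reads in replicate 1 and 88 in replicate 2. Of these, 48 and 77 were spliced. Some of the spliced reads lack the splice from exon 5 to exon 6 and are not in the shares above. A 5-exon model of this kind held 4 reads in replicate 1 and 7 in replicate 2. A further 4 reads (0.391%) in replicate 1 and 10 reads (1.08%) in replicate 2 were spliced from exon 6 to sites past the annotated end of Star. All of these sites lay within Ash2l, a gene on the opposite strand that encodes a subunit of histone methyltransferase complexes. The sites that begin at 25822708, 25825773 and 25829847 were used in both libraries.

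**Figure D2:**
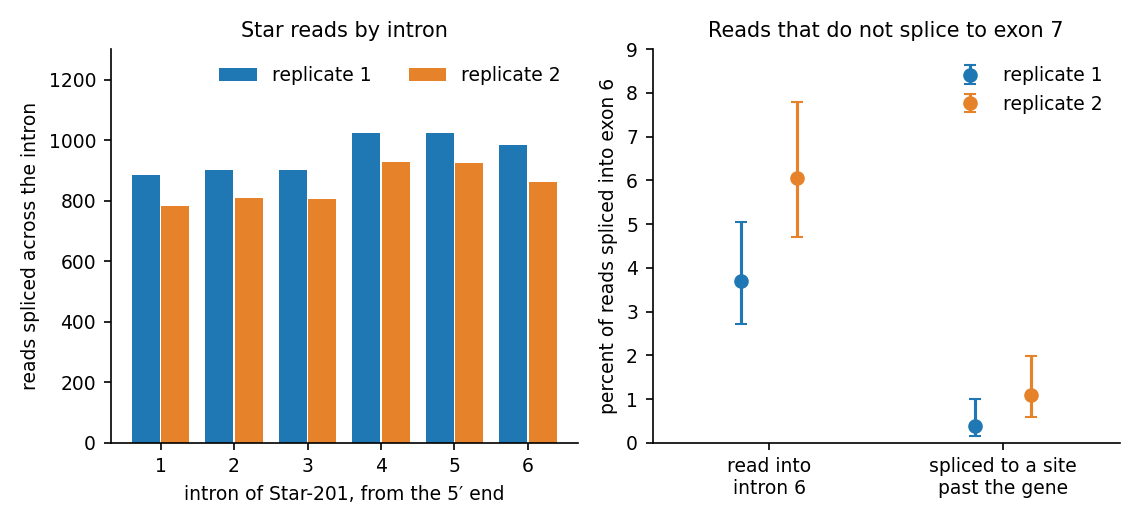
Left, reads spliced across each of the 6 introns of Star-201 (bars, replicate 1 left and replicate 2 right); right, percent of the reads spliced into exon 6 that ran into intron 6 or were spliced past the gene, with 95% Wilson intervals. Introns 4 and 5 have 1022 and 1024 reads in replicate 1 and 927 and 923 in replicate 2, against 883 and 783 reads for intron 1.

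The 3′ ends of Star were read from the transcript models, because each read carries the end of its model. All reads of Star-201 carry the annotated end at 25815982, wherever the cDNA itself stopped, and that end held 830 reads in replicate 1 and 700 in replicate 2. Exon 7 is 3210 bases long, with 3096 bases after the stop codon, and holds 4 AATAAA and 2 ATTAAA hexamers, the signals that most often direct cleavage and polyadenylation. New models ended within exon 7 at 25813414 (88 reads in replicate 1 and 0 in replicate 2) and 25813315 (0 and 146 reads). Others ended at 25814466 (107 and 7 reads), 25815299 (50 and 0 reads) and 25815311 (0 and 120 reads). All reads at 25813315 and 25814466 were spliced. Elsewhere many were not: spliced reads were 41 of 88 at 25813414, 8 of 50 at 25815299 and 10 of 120 at 25815311. These positions were not independent between libraries: the 4-exon chain with 105 reads in each library was given the end 25814466 in replicate 1 and 25813315 in replicate 2. For this chain the split between ends thus followed the end given to its model in each library. Whether the same holds for the other ends was not tested, and no difference in end use was read from any of them.

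The last 30 bases before 4 of these ends are shown because they differ in whether a polyadenylation hexamer precedes the end. The plus strand is given with the build GRCm38, and capitals mark the hexamer.
Star end at chr8:25813385-25813414: atcccatgacAATAAAgaacatacatgcac
Star end at chr8:25814437-25814466: tcagggctgttaaatagagaaatgctgctc
Star end at chr8:25815270-25815299: tatattttAATAAAagcagttgtcactggc
Star end at chr8:25815953-25815982: aagtatATTAAAttgtgttaatagtcattc
The hexamer began 20 bases before the end at 25813414, 22 bases before that at 25815299 and 24 bases before the annotated end. No AATAAA or ATTAAA lay in the 30 bases before 25814466. The 20 bases that follow it in the transcript held 17 adenines with a longest run of 7, against 5 and 6 adenines after 25813414 and 25815299. Priming of oligo-dT within such a stretch was not tested. The ends at 25813315 and 25815311, found in replicate 2, had no hexamer in the 30 bases before them either, and lie 99 bases upstream and 12 bases downstream of the replicate 1 ends with a hexamer.

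**Figure D3:**
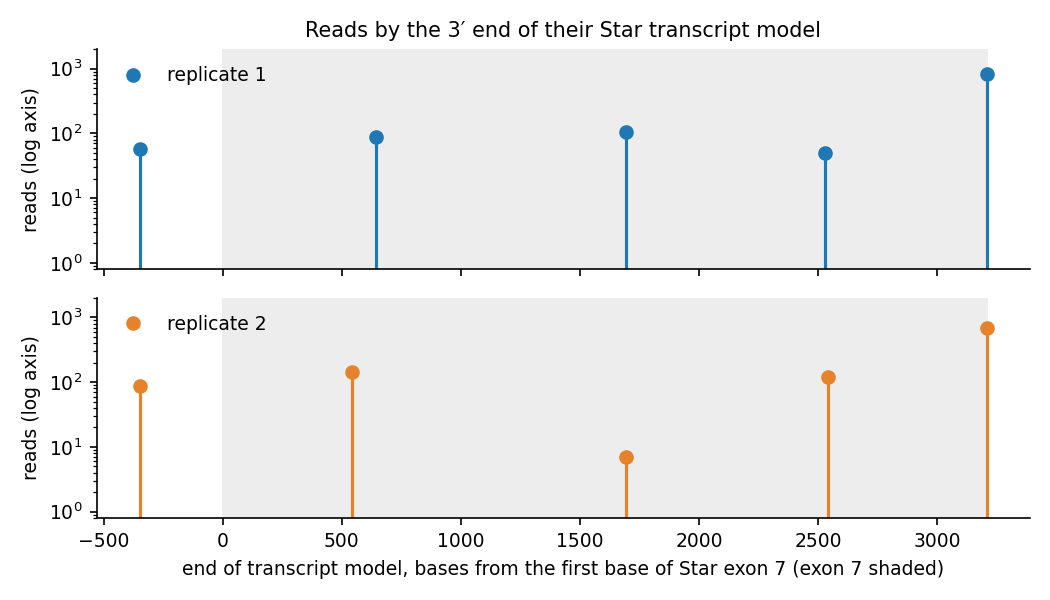
Reads of Star (log axis) by the 3′ end of their transcript model, in bases from the first base of exon 7, with replicate 1 above and replicate 2 below and exon 7 shaded; ends past the gene are left out. The annotated end has 830 reads in replicate 1 and 700 in replicate 2, and the end in intron 6 has 57 and 88.

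By class, 829 Star reads (73.0%) in replicate 1 and 699 (65.2%) in replicate 2 matched a known model. Incomplete splice matches, which follow part of a known exon chain, made up 235 of 1136 reads in replicate 1 and 225 of 1072 in replicate 2, against 9.89% and 11.1% of the reads of all known genes. Single-exon reads classed as genomic, which overlap the gene without a splice, were 52 (4.58%) in replicate 1 and 121 (11.3%) in replicate 2. Genomic reads made up 4.57% and 6.59% of the reads of all known genes. The gap between the libraries in Star is partly one of naming, since 47 further single-exon reads of exon 7 in replicate 1 were classed as an incomplete match. Over both classes the single-exon reads of Star were 99 (8.71%) in replicate 1 and 121 (11.3%) in replicate 2.

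A small share of Star reads used another splice site at exon 4. The acceptor lies 3 bases downstream and leaves out 3 coding bases. It was used by 8 reads (0.881% of those at this junction) in replicate 1 and 3 reads (0.371%) in replicate 2. The junction is shown on the plus strand, with exon 3 (chr8:25809911-25809934) joined to exon 4 from 25810945 to 25810968, and capitals mark the bases left out.
Star exon 3 to exon 4: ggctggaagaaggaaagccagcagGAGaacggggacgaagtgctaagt

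**Figure D4:**
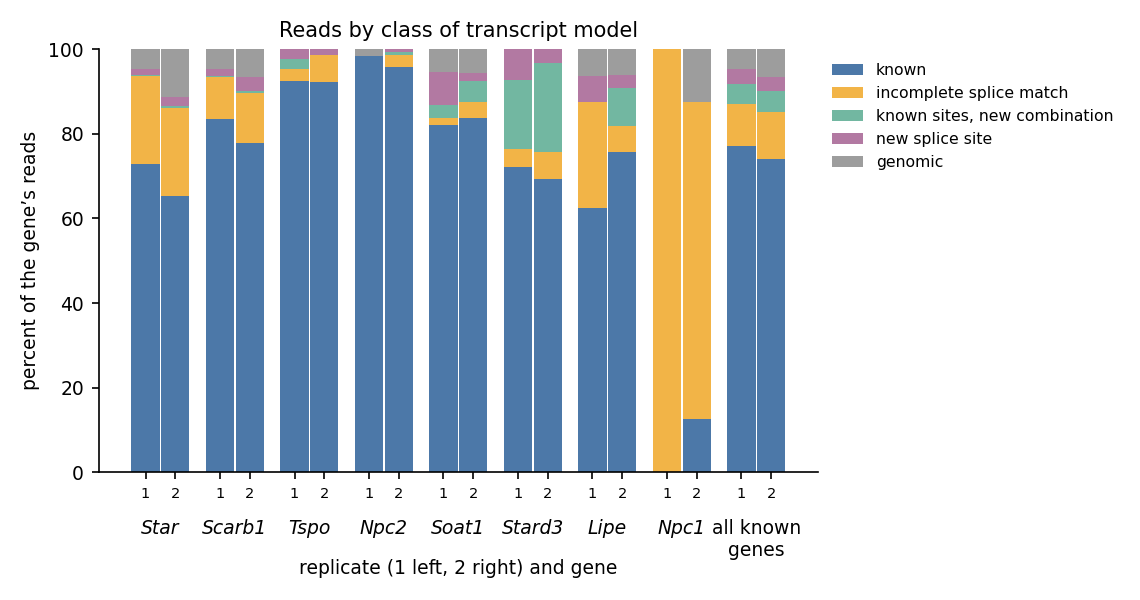
Percent of each gene's reads by class of transcript model (stacked, replicate 1 left and replicate 2 right), with all known genes at the right end. Star has 73.0% and 65.2% known reads, Npc2 98.5% and 95.9%, and Npc1 0% and 12.5%.

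Tspo (chromosome 15, 83563592 to 83574203, plus strand) encodes the translocator protein of the outer mitochondrial membrane, a cholesterol-binding protein. It had 212 reads in replicate 1 and 217 in replicate 2, or 308 and 268 CPM (288 ± 28.5 CPM, SD, n = 2). The libraries differed little (log2 ratio 0.20, Fisher's exact test, adjusted p 0.465). Its 4-exon model Tspo-201 held 196 of 206 (95.1%) and 200 of 203 (98.5%) complete or newly spliced reads. The alternative first exon of Tspo-202 was joined to exon 2 in 3 reads (1.49%) in replicate 1 and in 0 of 201 reads in replicate 2 (95% Wilson upper bound 1.88%).

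Scarb1 (chromosome 5, 125277087 to 125341094, minus strand), the gene of the lipoprotein receptor SR-BI, came second to Star. It had 350 reads in replicate 1 and 302 in replicate 2, or 508 and 372 CPM (440 ± 96.1 CPM, SD, n = 2). Star had 3.25 reads per Scarb1 read in replicate 1 and 3.55 in replicate 2. Scarb1 was 1.36 times as high in replicate 1 (95% counting interval 1.17 to 1.60), with a log2 ratio of 0.45. It passed on the p alone (Fisher's exact test, adjusted p 0.0021), not on size.

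Reads of both C-terminal splice forms of Scarb1 were found. The gene has 2 coding ends: with exon 12 included the message encodes SR-BI, and with it skipped the next exon, untranslated in the first form, supplies the coding end of SR-BII. Of reads that span this region, 29 of 327 (8.87%, 95% Wilson interval 6.25 to 12.4) skipped exon 12 in replicate 1 and 30 of 274 (10.9%, 7.78 to 15.2) in replicate 2, or 9.91% ± 1.47 (SD, n = 2). The intervals overlapped. As whole models, Scarb1-201 held 265 and 203 reads and Scarb1-202, the annotated SR-BII model, 22 reads in each library.

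The coding bases that set the tails apart are shown because the choice of exon 12 decides which tail is encoded; both are on the minus strand of GRCm38, from the codon after exon 11 up to the stop codon.
Scarb1-201 tail, chr5:125281108-125281233: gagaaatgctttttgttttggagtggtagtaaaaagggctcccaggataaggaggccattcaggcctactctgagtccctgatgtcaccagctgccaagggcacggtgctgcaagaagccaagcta
Scarb1-202 tail, chr5:125277749-125277865: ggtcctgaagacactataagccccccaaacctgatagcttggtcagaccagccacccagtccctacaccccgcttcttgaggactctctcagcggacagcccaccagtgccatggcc
The first has 126 bases and is followed by the stop codon tag, and the second has 117 bases and is followed by tga. The whole coding parts are 509 and 506 codons long.

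Among Scarb1's complete or newly spliced reads, Scarb1-201 held 265 of 299 (88.6%) in replicate 1 and 203 of 246 (82.5%) in replicate 2. That difference of 6.11 points was not called (Fisher's exact test, adjusted p 0.668). Scarb1-204, a 3-exon processed transcript, had 4 reads in replicate 1 and 8 in replicate 2. Incomplete models from exons 4, 7 and 10 onward were listed in both libraries with 5 to 9 reads each over the pair. Another, with 11 reads in each library, began at 125304542, within intron 1 and upstream of exon 2. Single-exon genomic reads numbered 16 and 20.

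**Figure D5:**
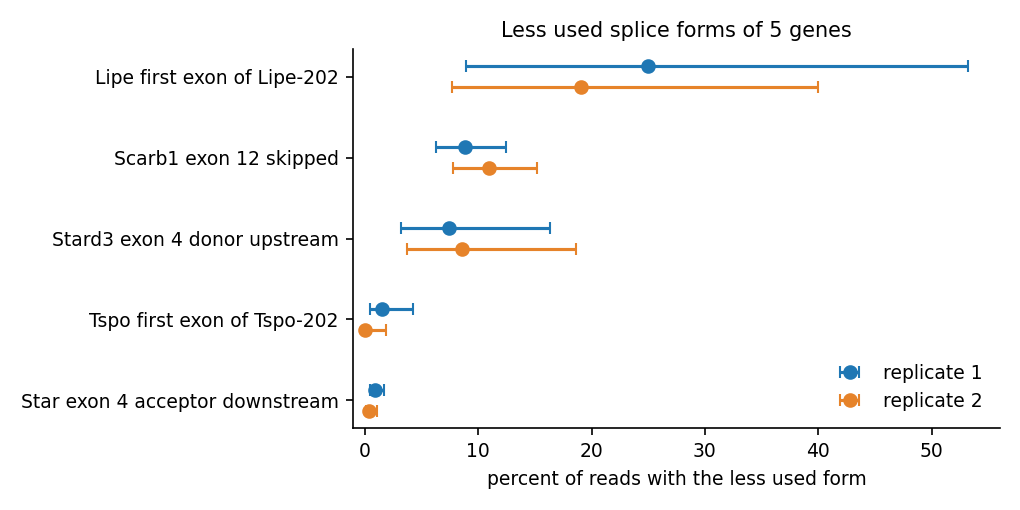
Percent of reads with the less used of 2 splice forms, with 95% Wilson intervals, replicate 1 above replicate 2 in each row. Skipping of Scarb1 exon 12 stands at 8.87% in replicate 1 and 10.9% in replicate 2, and the intervals of the libraries overlap in all 5 rows.

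Soat1 (chromosome 1, 156424525 to 156474331, minus strand), which encodes the sterol O-acyltransferase that makes cholesterol esters, had 129 reads in replicate 1 and 105 in replicate 2. These equalled 187 and 129 CPM (158 ± 40.9 CPM, SD, n = 2). Its log2 ratio of 0.53 was the highest of the members tested, and the adjusted p was above the threshold (Fisher's exact test, adjusted p 0.0645). The second enzyme of this kind, Soat2, had 0 reads in replicate 1, which allows up to 4.36 CPM, and 10 reads in replicate 2. The 9 liver marker genes stood at 455 CPM in replicate 1 against 17522 CPM in replicate 2, and their part in the Soat2 count was not tested.

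The 16-exon Soat1-207 held 104 of 120 (86.7%) complete or newly spliced Soat1 reads in replicate 1 and 83 of 95 (87.4%) in replicate 2. That model is annotated with 8371 bases and a far 3′ end. The end cannot be read from its count, because an exon chain match suffices to enter it. Spliced models outside the known class mostly carried another end. In replicate 1, 13 of 16 such reads, and in replicate 2, 11 of 11, ended at 156429793, the annotated end of Soat1-201. That end lies 5268 bases before the end of Soat1-207, and none of these reads carried the far end. With 27 such reads in all, the share of short ends among Soat1-207 reads was not measured.

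Lipe (chromosome 7, 25379527 to 25398710, minus strand), the hormone-sensitive lipase gene, had 16 reads in replicate 1 and 33 in replicate 2, or 23.2 and 40.7 CPM (32.0 ± 12.3 CPM, SD, n = 2). It was the only tested member lower in replicate 1, and it did not pass (log2 ratio −0.80, Fisher's exact test, adjusted p 0.301). Fat also uses this lipase, and 2 of 7 tested fat markers were above 0 in log2 ratio, with a median of −0.41 over the list; their part in the Lipe value was not tested. Lipe-201 had 7 reads in replicate 1 and 15 in replicate 2, and Lipe-202, which starts at another first exon, 3 and 4 reads. The first exon of Lipe-201 holds 109 coding bases and that of Lipe-202 holds 0. Of reads that join either first exon directly to exon 2, 3 of 12 (25%, 95% Wilson interval 8.89 to 53.2) in replicate 1 and 4 of 21 (19.0%, 7.67 to 40.0) in replicate 2 used the Lipe-202 exon. These shares leave out new models of 1 read each, in both libraries, that also start where Lipe-202 does. They also leave out 4 reads of Lipe-208 in replicate 2, which start at another site.

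Npc2 (chromosome 12, 84754562 to 84773152, minus strand) and Npc1 (chromosome 18, 12189692 to 12236400, minus strand) encode the soluble and the membrane protein that hand cholesterol out of the lysosome. Npc2 had 130 reads in replicate 1 and 146 in replicate 2, or 189 and 180 CPM (184 ± 6.20 CPM, SD, n = 2). This was the smallest spread of the 8 genes relative to the level. Its log2 ratio of 0.07 (Fisher's exact test, adjusted p 0.927) became −0.04 with TMM or DESeq2 scaling, so it has no stable direction. Almost all complete reads were Npc2-201, with 127 of 128 (99.2%) in replicate 1 and 139 of 142 (97.9%) in replicate 2.

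Npc1 had 4 reads in replicate 1 and 8 in replicate 2, or 5.81 and 9.87 CPM. The first value is close to the 4.36 CPM that equal 3 reads. It had under 20 reads in all and was not tested. Only 1 of its 12 reads, in replicate 2, matched the whole 25-exon Npc1-201, whose annotated length is 5224 bases. The most frequent model was an incomplete one of the last 8 exons, with 2 reads in replicate 1 and 4 in replicate 2. Its first intron was crossed by 0 reads in replicate 1 and 1 in replicate 2, against 4 and 7 for the last intron.

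Support for the first intron, as a percent of that for the last, was 0% in replicate 1 and 14.3% in replicate 2 for Npc1, from 4 and 7 reads at its last intron. The level of Npc1 is thus a count of mostly 3′ partial reads. For Star, Tspo, Scarb1, Soat1, Npc2 and Stard3 the value lay between 89.8% (Star, replicate 1) and 99.2% (Npc2, replicate 1). The last intron of Star was itself crossed less often than intron 5, which raises the Star value. Intron 6 had 983 reads in replicate 1 and 863 in replicate 2, against 1024 and 923 for intron 5. Unspliced reads do not enter any of these values. For Lipe it was 75% in replicate 1 and 65.4% in replicate 2, from 12 and 26 reads at the last intron of Lipe-201. That value holds the choice of first exon too: the 3 and 4 reads of Lipe-202, and 4 reads of Lipe-208 in replicate 2, start at other first exons and do not cross intron 1 of Lipe-201. It was therefore not read as a lack of 5′ ends in Lipe.

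Stard3 (chromosome 11, 98358368 to 98381112, plus strand) encodes a late endosomal protein with the same lipid-binding domain as the Star protein. It had 68 reads in replicate 1 and 62 in replicate 2, or 98.8 and 76.5 CPM (87.6 ± 15.8 CPM, SD, n = 2). The log2 ratio of 0.37 did not pass (Fisher's exact test, adjusted p 0.484). Its isoforms were the most mixed of the 6 members with enough reads: Stard3-201 held 49 of 65 (75.4%) and 43 of 58 (74.1%) complete or newly spliced reads, against a median of 92.3% and 91.0% for the leading model over 2440 genes. New combinations of known splice sites made up 11 of 68 reads in replicate 1 and 13 of 62 in replicate 2.

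A donor site in exon 4 that leaves out 13 bases recurred in Stard3. It was used by 5 reads (7.46%, 95% Wilson interval 3.23 to 16.3) in replicate 1 and 5 reads (8.62%, 3.74 to 18.6) in replicate 2, or 8.04% ± 0.819 (SD, n = 2). The number of bases left out is not a multiple of 3, and the site is annotated in Stard3 models without a coding part. The end of exon 4 (plus strand, GRCm38, chr11:98375517-98375553) is shown joined to exon 5 from 98375675 to 98375698, with the bases left out in capitals.
Stard3 exon 4 to exon 5: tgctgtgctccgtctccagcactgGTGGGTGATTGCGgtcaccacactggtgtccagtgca

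The difference between the libraries was then read over the 8 genes together. A call needed both an adjusted p below 0.05 and a log2 ratio beyond 1 or −1, which 3.23% of the 8276 tested genes met (0.967% higher and 2.26% lower in replicate 1). Of the 7 members tested, 0 were called by Fisher's exact test. TMM scaling, DESeq2 size factors and the other settings tried also called 0. Star, Scarb1 and Soat1 had an unadjusted p under 0.05. On the adjusted p alone, Star and Scarb1 passed, both higher in replicate 1, against 7.93% of all tested genes (4.1% higher and 3.83% lower in replicate 1). The median log2 ratio of the 7 tested members was 0.32, beside 0.10 over all genes tested. TMM scaling moved both, to 0.21 for the members and −0.00203 over all genes, and DESeq2 size factors to 0.21 and −0.00277. Over all genes 80 of 267 calls (29.96%) were higher in replicate 1, and 47 of 258 (18.2%) with TMM and 45 of 256 (17.6%) with DESeq2 size factors. Each side held 1 library, so these differences have no replicate check and compare the libraries, not animals. The 8 cortical markers had a median of 0.58 and the 9 liver markers one of −5.71, and their part in the member values was not tested. In isoform use, 0 of the 6 members with enough reads were called by Fisher's exact test, against 0.41% of 2440 genes.

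Genes that work beside the members gave the wider picture of the route. Calls in these lists follow the same rule, which 3.23% of all tested genes met, so few calls are due in lists this short. On the adjusted p alone (Fisher's exact test), which 7.93% of all tested genes passed, other genes than Star, Scarb1 and Apoe passed too. Cebpb, Nr5a1, Nr4a1 and Pnpla2 were higher in replicate 1, and Cidea and Dbi were lower. In the lipoprotein uptake list, all 10 genes were detected, 5 were tested and 0 were called (median log2 ratio 0.07, and −0.03 with TMM or DESeq2 scaling). Scarb1 led it, followed by the fatty acid receptor gene Cd36 at 108 ± 3.93 CPM, and Lrp1 stood at 42.4 ± 16.8 CPM. Of the 13 endosome and lysosome genes, 11 were tested and 0 called (median 0.15). The membrane protein genes Lamp1 (490 ± 35.8 CPM) and Lamp2 (196 ± 10.4 CPM) led, and the acid lipase gene Lipa, which frees cholesterol from ingested esters, followed Npc2 at 116 ± 18.2 CPM.

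The list of ester storage and hydrolysis had 14 genes detected, 11 tested and 0 called (median 0.12). The droplet coat gene Plin2 led at 502 ± 11.7 CPM. It was followed by Cidea (293 ± 61.4 CPM) and Plin1 (246 ± 28.4 CPM), which are also fat markers, and by the triglyceride lipase gene Pnpla2 (181 ± 55.8 CPM). Soat1 followed, and the values of Lipe (16 reads in replicate 1 and 33 in replicate 2) overlapped in CPM with those of Nceh1, another cholesterol ester hydrolase gene (36 and 30 reads). Among mitochondrial import partners all 12 genes were tested and 0 called (median 0.18). After Star came Dbi, the acyl-CoA binding protein gene, at 774 ± 129 CPM, then Prkar1a, a regulatory subunit of protein kinase A, at 764 ± 35.3 CPM and the channel gene Vdac3 at 311 ± 32.2 CPM and Tspo.

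Among the 15 genes of the START family, which share the lipid-binding domain of Star, 7 were tested and 0 called (median 0.31). After Star the highest were Stard7 (224 ± 0.544 CPM), Stard3 and Stard10 (51.4 ± 11.0 CPM). Of 10 regulators of Star, 7 were tested, all with a log2 ratio above 0 (median 0.51, beside 0.10 over all genes tested), and 0 were called. The 8 cortical markers were all above 0 as well, with a median of 0.58 (7 of 8 with TMM or DESeq2 scaling), Nr5a1 is in both lists, and the part of the cortical markers in the regulators' values was not tested. They were led by Cebpb (1995 ± 408 CPM), a transcription factor gene, by Nr5a1 (572 ± 141 CPM), which encodes steroidogenic factor 1, and by Gata6 and Nr0b1 (both 108 CPM, SD 18.1 and 26.6). In the efflux list of 6 genes, 4 were tested and 1 was called: the apolipoprotein gene Apoe, lower in replicate 1, with 2429 CPM against 8974 CPM in replicate 2. Liver makes this protein too, and the part of the liver markers in it was not tested. The oxysterol receptor genes Nr1h2 (240 ± 24.8 CPM) and Nr1h3 (22.3 ± 5.41 CPM) and the transporter gene Abcg4 (33.8 ± 7.67 CPM) were not called.

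The genes closest to a member in level were found by the Euclidean distance of log2(CPM + 0.5) over the 2 libraries. For Star they were Ctsb and Ctsd, the genes of lysosomal proteases, then Itm2b, Gm15459 and the ferritin light chain gene Ftl1, at distances of 0.05 to 0.23. For Scarb1 they were Cdc42, Tmem176b, Vapa, Nrep and Pdia6, at 0.02 to 0.09. No tested gene was that close to Npc1, as the test required 20 reads, and the nearest, Brpf1, Trdn, Mtor, Hcfc1 and Foxo3, were tied at 0.92. Over 2 libraries such a distance describes level and little else.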

How the data were processed

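The deposited quantification tables, 1 for each library, give counts of long reads per transcript model without normalization, from alignments to mm10 with GENCODE release M21, per the file descriptions deposited with them. Models carry tags of the TALON program, per the file headers. Which aligner and filters were used, and in which versions, is not given in the sources used here. Annotation files, also deposited, gave exon coordinates, counted from 1.

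Counts were summed per gene and turned into CPM over all mouse reads, with spike-ins left out. Each gene with at least 20 reads was tested between libraries (two-sided Fisher's exact test, scipy 1.17.1, Benjamini-Hochberg adjustment over 8276 genes; 0.5 CPM added for log2 ratios, which are replicate 1 over replicate 2). Isoform use was tested likewise over genes with at least 50 complete or newly spliced reads in each library, calling differences of at least 10 points. Ratios have 95% Clopper-Pearson and shares 95% Wilson intervals; these, and floors of 3 reads (4.36 and 3.70 CPM), cover counting error only.

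The members and the 7 pathway and 7 marker lists were chosen with earlier results of these data known. Named were all members, their models with at least 5 reads over both libraries, every called gene and the 4 most abundant genes of each pathway list, and the 5 genes closest to Star, Scarb1 and Npc1; some genes of the lipoprotein uptake list are not reported here by name; other names were chosen after their values were seen, as were the splice forms compared. Alternatives were TMM (edgeR 4.0.16) and DESeq2 1.42.0 size factors on the deposited counts, other minimums and pseudocounts, and model classes left out. Transcript sequences came from GENCODE M21 (GRCm38).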

Additional observations from a re-analysis of the deposited data

Results flagged for a closer look

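Reads on the strand opposite to a gene are counted under new loci and entered no level above. They were found over 3 of the 8 genes, in each case above the 0 reads found over the other 5. The loci antisense to Star held 11 reads in replicate 1 and 16 in replicate 2, beside 1136 and 1072 sense reads. Those antisense to Scarb1 held 13 and 11 reads, beside 350 and 302. Antisense to Soat1 lay 16 reads in replicate 1 and 24 in replicate 2, equal to 12.4% and 22.9% of its sense reads. None of these antisense reads was spliced, and without a splice the strand of a read rests on how the read was oriented, which was not tested. No group of 4 or more libraries existed in which a single library could be tested against the others.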

How the results depend on the processing

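Under the scalings, minimums, pseudocounts and model classes tried, the 7 tested members kept their side of the size threshold, except Lipe. With known models alone its log2 ratio was −1.15, and it was not called (Fisher's exact test, adjusted p 0.177). All log2 ratios kept their direction except that of Npc2, which became −0.0361 with TMM and −0.0369 with DESeq2 size factors. The median over all tested genes changed sign with both, as did that of the lipoprotein uptake list (−0.0301 and −0.0309). With no minimum above 1 read the medians of the START family and the efflux list became −0.438 and −0.379. Apoe was called under each of these settings, and Soat2 was called with a minimum of 10 reads. The summed level of the 8 genes was 2399 to 2970.5 CPM with either library left out. The share of reads running into Star intron 6, 4.83% over both libraries, was 3.71% to 6.07% with either library left out, and 0.128% when incomplete and genomic models were dropped, which removes those reads by construction. Skipping of Scarb1 exon 12 was 8.87% to 10.9% with either library left out. Calls of isoform use numbered 10 of 2440 genes, and 1 of 2161 genes with known models alone. In both settings 0 were members, and why the number fell was not tested. Leaving liver marker reads out of the total, a setting chosen after seeing the data, gave 266 called genes and 0 called members. With known models alone the mean level of Npc1 was 0.880 CPM instead of 7.84 CPM, since 1 of its 12 reads matches a known model. The same setting moved Tspo from 288 to 368 CPM and Npc2 from 184 to 249 CPM, each by more than its SD between libraries. Leaving out genomic models moved Npc2 to 193 CPM, also by more than its SD of 6.20 CPM. No paired analysis was possible because there is a single group. Few reads limit Npc1 and Lipe most, and the ends of reads cannot be told from model ends.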

Other observations

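In replicate 2, 3 reads counted under Kcnu1, a sperm potassium channel gene on the same strand as Star, had models that began within Star. These reads were spliced from the end of Star exon 6 to a site 35842 bases past the annotated end of Star. In replicate 1 such reads were 0, which allows up to 3. They are not part of the Star counts.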
